A study of Mus musculus with 3 samples.

Results

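Windows of the mouse genome in which H3K4me3 and H3K27me3 had both been called, without H3K36me3, were analysed in fully-grown germinal vesicle (GV) oocytes. A 2 kb window was counted when the study's table of histone marks gave it both calls and the mean H3K36me3 of the 3 replicates was 1 RPKM or less. RPKM is the authors' name for their read values scaled to library depth, and it is used here as a relative scale. In all, 106063 of 1186323 valid windows met this rule, that is 8.94% of the windows or 212 Mb. They were 94.5% of the 112195 windows with both calls, and the remaining 6132 windows, above 1, carried all 3 marks. They also made up 31.6% of the windows called for H3K4me3 and 29.8% of those called for H3K27me3.

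The study measured H3K36me3 by ultra-low-input native ChIP-seq, which pulls down chromatin from few cells without cross-linking. The 3 replicates formed a single group of wildtype C57BL6/Babr mice aged 25 days, with no treatment or mutant to compare, and each was a pool of about 280 oocytes, so single oocytes and single animals could not be told apart. A window called for 2 marks may carry them on the same allele, on different alleles or in different oocytes. The H3K4me3 and H3K27me3 calls came from earlier libraries of the same laboratory, with 1 call per window and no replicates here, and they are used as given.

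H3K4me3 is laid down at promoters, above all those rich in CpG, and in growing oocytes it also spreads into broad domains away from promoters. H3K27me3, the mark of Polycomb repressive complex PRC2, lies over silent developmental genes and, in oocytes, over wide untranscribed regions. Chromatin with both marks is called bivalent, and in embryonic stem cells it is known from promoters of lineage regulators. H3K36me3 is placed by SETD2 on transcribed gene bodies, and in oocytes it guides de novo DNA methylation.

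The promoters of 5 developmental regulators are shown to give the kind of sequence that carried both marks over long runs, with the promoters of 2 housekeeping genes whose start window had H3K4me3 alone. Each is the 250 bases before the gene start, read on the strand of the gene, from RefSeq on GRCm38.p6. Capitals mark the dinucleotide CG, which reads the same on both strands. The homeobox gene Msx1 (muscle segment homeobox, craniofacial development) lies at chr5:37824586-37824835 on the minus strand, in a run of 15 windows. Foxd3, a forkhead factor of the neural crest, is at chr4:99656049-99656298 (plus strand, 13 windows). Sox1, a factor of neural progenitors, is at chr8:12395269-12395518 (plus strand, 12 windows). Pax6, a factor of eye and brain development, is at chr2:105668646-105668895 (plus strand, 11 windows), and Olig2, a factor of oligodendrocytes and motor neurons, is at chr16:91225300-91225549 (plus strand, 11 windows). For comparison, Tbp, which encodes the TATA-binding protein, is at chr17:15499638-15499887 (plus strand), and Rplp0, which encodes a ribosomal protein, is at chr5:115559217-115559466 (plus strand).
Msx1: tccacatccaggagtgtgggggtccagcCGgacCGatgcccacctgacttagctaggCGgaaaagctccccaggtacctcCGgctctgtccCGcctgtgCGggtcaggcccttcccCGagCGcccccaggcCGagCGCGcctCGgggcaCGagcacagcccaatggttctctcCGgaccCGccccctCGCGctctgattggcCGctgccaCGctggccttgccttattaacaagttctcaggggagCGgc
Foxd3: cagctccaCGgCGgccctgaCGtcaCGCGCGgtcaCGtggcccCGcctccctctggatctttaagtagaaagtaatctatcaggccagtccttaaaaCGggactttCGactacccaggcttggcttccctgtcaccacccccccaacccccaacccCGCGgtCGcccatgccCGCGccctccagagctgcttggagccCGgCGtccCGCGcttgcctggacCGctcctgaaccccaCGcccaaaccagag
Sox1: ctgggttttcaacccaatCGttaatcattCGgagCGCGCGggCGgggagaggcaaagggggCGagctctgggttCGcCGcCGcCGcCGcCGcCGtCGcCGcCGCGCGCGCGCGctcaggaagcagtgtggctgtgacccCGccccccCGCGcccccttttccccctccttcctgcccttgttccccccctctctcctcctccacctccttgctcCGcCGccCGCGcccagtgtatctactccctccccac
Pax6: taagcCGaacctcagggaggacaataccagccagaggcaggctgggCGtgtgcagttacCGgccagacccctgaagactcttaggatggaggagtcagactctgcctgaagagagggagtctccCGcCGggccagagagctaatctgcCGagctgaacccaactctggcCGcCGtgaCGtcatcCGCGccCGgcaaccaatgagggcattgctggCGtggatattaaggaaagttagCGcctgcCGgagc
Olig2: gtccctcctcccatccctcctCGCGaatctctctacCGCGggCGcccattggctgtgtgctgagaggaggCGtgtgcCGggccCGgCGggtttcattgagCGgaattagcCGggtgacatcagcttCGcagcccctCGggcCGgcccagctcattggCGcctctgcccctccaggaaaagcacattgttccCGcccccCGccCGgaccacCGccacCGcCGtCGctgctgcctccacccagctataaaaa
Tbp: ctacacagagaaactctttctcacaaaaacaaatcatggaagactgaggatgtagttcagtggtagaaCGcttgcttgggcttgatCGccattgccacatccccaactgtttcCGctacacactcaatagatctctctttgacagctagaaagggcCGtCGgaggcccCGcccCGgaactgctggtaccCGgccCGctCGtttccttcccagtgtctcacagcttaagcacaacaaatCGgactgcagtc
Rplp0: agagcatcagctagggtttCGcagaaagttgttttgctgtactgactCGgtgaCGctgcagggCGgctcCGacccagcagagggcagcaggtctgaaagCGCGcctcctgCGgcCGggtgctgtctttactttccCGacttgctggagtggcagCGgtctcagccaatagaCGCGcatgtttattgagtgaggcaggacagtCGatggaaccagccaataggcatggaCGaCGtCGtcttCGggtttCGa

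The 5 promoters with both marks held between 15 (Pax6) and 29 (Sox1) CG, and those of Tbp and Rplp0 held 11 and 19. CG content thus did not separate these few examples. H3K36me3 in the start window was 0.272, 1.98 and 0 RPKM in replicates 1, 2 and 3 for Msx1, so replicate 2 stood apart. It was 0.543, 0.396 and 0.338 for Foxd3, 0.543, 0.396 and 0 for Sox1, and 0.136, 0 and 0 for Pax6, and the window of Olig2 held no read. Tbp had 0.679, 0.793 and 0 and Rplp0 1.09, 0.793 and 0, so single start windows overlapped between the 2 sets at this depth. Among 14087 protein-coding genes with a RefSeq promoter within 2 kb of the annotated start, 95.2% held at least 1 CG in 250 bases. The median number of CG was 11 (quartiles 5 to 19, 3471 promoters) where the start window had both marks, against 16 (9 to 23, 5485 promoters) for H3K4me3 alone, 14 (6 to 22, 3343 promoters) for any H3K36me3, 2 (1 to 4, 743 promoters) for H3K27me3 alone and 1 (0 to 2, 1045 promoters) for no mark. Promoters with both marks thus ranged widely, and their quartiles overlapped those of H3K4me3 alone and not those of H3K27me3 alone.

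H3K36me3 in the windows was low by the rule, so its level is given as a description. Replicates 1, 2 and 3 averaged 0.460, 0.379 and 0.272 RPKM over the windows, or 0.371 ± 0.094 (SD, n = 3). The median window had 0.335 RPKM (quartiles 0.181 to 0.519) and rested on 5 reads over the 3 replicates together, and 2123 windows (2.00%) held no read at all. A value above 1 took 8 reads in replicate 1 and 3 reads in replicates 2 and 3, so single windows were measured coarsely and most statements below are on means over many windows. In 76.0% of the windows no replicate was above 1, in 22.4% a single replicate was, and in 1.61% 2 replicates were. Just inside the threshold, 2370 windows from 0.9 to 1 had 0.759, 1.24 and 0.846 RPKM in replicates 1, 2 and 3. Just outside it, 1685 windows with all 3 marks, from above 1 to 1.1, had 0.830, 1.33 and 0.979 RPKM. In both sets replicate 2, which was made with less antibody, was the highest, and the part of the antibody in this was not tested.

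H3K36me3 is given next by distance to the nearest window called for it, as a description, since the same values set the rule and the calls. It was 0.626, 0.481 and 0.439 RPKM in replicates 1, 2 and 3 in the 8817 windows next to an H3K36me3 window. In the 66490 windows more than 10 kb away it was 0.420, 0.357 and 0.239, and in the 11758 windows more than 50 kb away it was 0.363, 0.325 and 0.209. The last set is part of the one before it. By position inside a run, the level was 0.371 ± 0.087 (SD, n = 3) in runs of a single window and 0.367 ± 0.104 in the inner windows of runs of at least 5, a difference well below the spread between replicates. Windows in genes had 0.382 ± 0.095 and windows outside genes 0.361 ± 0.094 (SD, n = 3). In replicates 1, 2 and 3 these were 0.474, 0.387 and 0.284 against 0.448, 0.372 and 0.262, higher in genes in 3 of 3 replicates. The difference was small beside the levels, whose SD is not the spread of the difference within replicates.

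Windows with both marks formed short runs. A run is a series of neighbouring windows of a single category, and 52426 runs held the 106063 windows, at a mean length of 2.02 windows and a median of 1. Single windows were 54.3% of the runs and held 26.9% of the windows. Runs of at least 5 windows (10 kb) numbered 4032 and held 25.2% of the windows, while 4.57% lay in the 411 runs that reached 10 windows. No run was longer than 23 windows (46 kb). H3K4me3 alone formed runs of much the same kind, with 29.6% of its 169128 windows in runs of at least 5 and a longest run of 58 kb. H3K27me3 alone formed far longer runs, with 49.3% of its 218973 windows in runs of at least 5, 25.8% in runs of at least 10 and a longest run of 172 kb. Allowing runs with both marks to bridge 1 window of another category raised the share in runs of at least 5 to 44.5%, so many of the short runs lay a single window apart. Stricter rules lowered it, to 10.98% with a mean of 0.5 RPKM or less and to 11.8% with every replicate at 1 or less.

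**Figure D1:**
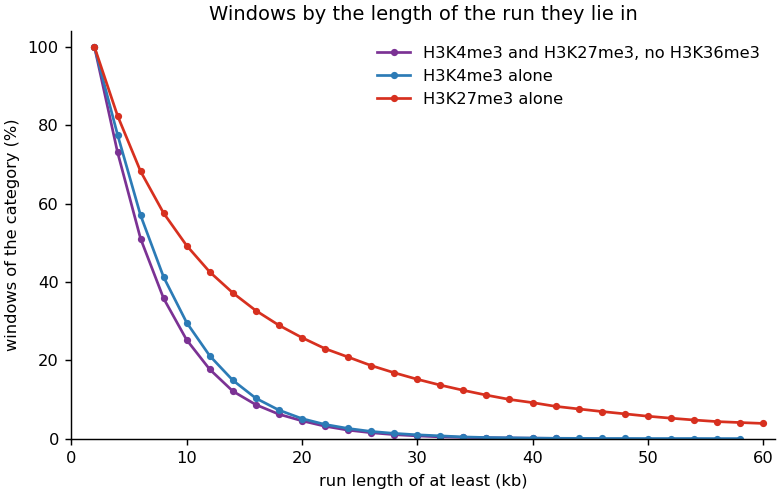
Share of the windows of a category (%, y axis) that lie in runs of at least a given length (kb, x axis), for windows with H3K4me3 and H3K27me3 without H3K36me3, H3K4me3 alone and H3K27me3 alone. At 10 kb the shares are 25.2%, 29.6% and 49.3%, and the axis ends at 60 kb although H3K27me3 alone reached 172 kb.

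The curves of run length show how close windows with both marks were to H3K4me3 alone, and how far from H3K27me3 alone. At 20 kb the same 3 shares were 4.57%, 5.13% and 25.8%.

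The windows were mostly set inside longer stretches of H3K4me3 or H3K27me3. Stretches of windows with H3K4me3, H3K27me3 or both, and no H3K36me3, numbered 114987, and 29309 of them (25.5%) held at least 1 window with both marks. These were 6 windows long at the median, against 2 windows for stretches without. A longer stretch has more room for such a window, so the 2 medians are a description and not a test. Only 5.75% of the windows with both marks lay in a stretch made of nothing else, while 53.7% lay in stretches that also held H3K4me3 alone and H3K27me3 alone. A further 20.01% shared their stretch with H3K27me3 alone and 20.6% with H3K4me3 alone. The longest such stretch had 208 windows, and 64.3% of the windows were in stretches of at least 10.

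The marks that met the ends of runs were counted next. Of 104852 ends, 47.4% met H3K27me3 alone, 30.5% H3K4me3 alone, 12.4% a window with no mark and 9.13% a window with H3K36me3 in any combination, and 0.544% met a window outside the table. The H3K36me3 neighbours were most often windows with all 3 marks (4.02% of ends), followed by H3K36me3 and H3K27me3 (2.85%), H3K36me3 and H3K4me3 (1.299%) and H3K36me3 alone (0.957%). By pairs of ends, 29.96% of the runs had H3K27me3 alone on either side, 19.3% had H3K27me3 alone on one side and H3K4me3 alone on the other, and 13.5% had H3K4me3 alone on either side. In runs of at least 5 windows the ends met H3K4me3 alone and H3K27me3 alone almost equally, at 39.9% and 40.7%, and 29.7% of these runs joined the former to the latter. Runs of the single marks ended otherwise. Of the ends of H3K4me3 alone, 40.4% met no mark, 29.0% any H3K36me3 and 20.9% windows with both marks. Of the ends of H3K27me3 alone, 49.6% met no mark, 31.9% windows with both marks and 8.90% any H3K36me3.

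To see how H3K36me3 lay beside the runs, the second to 5th windows beyond either end were measured, whatever their category, since the first window decides where the run ends. Windows of a further run of the same kind are low in H3K36me3 by the rule or by the calls. They are among those measured for all 3 kinds of run. No comparison left them out, so their part in the ratios below was not tested. The mean was 0.543, 0.510 and 0.432 RPKM in replicates 1, 2 and 3 beside runs with both marks. It was 0.783, 0.750 and 0.747 beside runs of H3K4me3 alone and 0.421, 0.405 and 0.323 beside runs of H3K27me3 alone. In every replicate the runs with both marks lay between the others, although the value for replicate 3 was close to those of H3K27me3 alone in replicates 1 and 2. The log2 ratio was -0.62 ± 0.14 (SD, n = 3) against H3K4me3 alone, a ratio of 0.648, and 0.37 ± 0.05 (SD, n = 3) against H3K27me3 alone, a ratio of 1.296. With runs of at least 5 windows only, the log2 ratios moved to -0.37 and 0.90, and in the first window beyond the end the second was 0.17. Both differences had the same direction in 3 of 3 replicates and exceeded the spread of the ratio between replicates. By exact two-sided permutation of the signs of the 3 log2 ratios, either difference had p = 0.25 (0.25 after Benjamini-Hochberg adjustment over 4 contrasts), the smallest value that 3 replicates allow, so this design cannot reach 0.05. Of the windows measured, 10.5%, 25.9% and 5.93% were called for H3K36me3 beside runs of both marks, H3K4me3 alone and H3K27me3 alone.

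**Figure D2:**
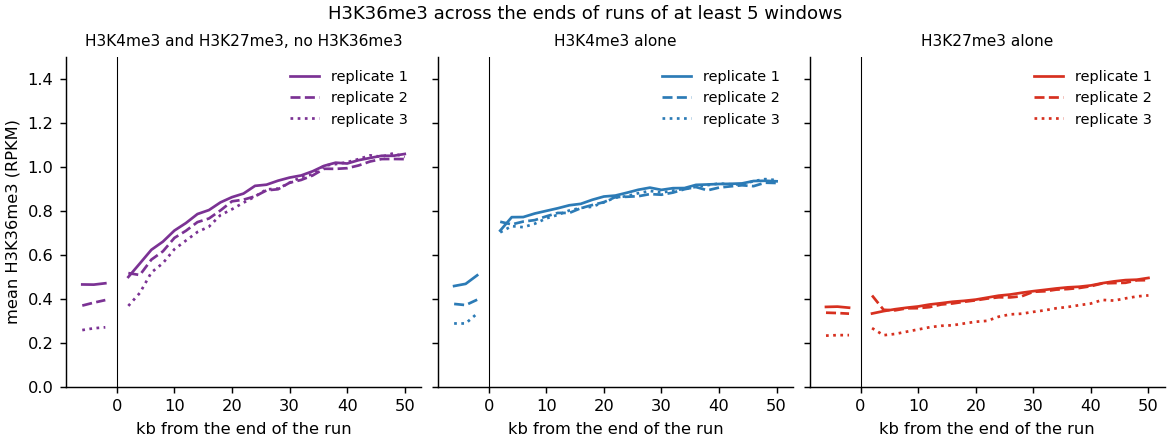
Mean H3K36me3 (RPKM, y axis) against distance from the end of runs of at least 5 windows (kb, x axis; negative values are inside the run), for 3 kinds of run, with a line for each replicate. Beyond runs with both marks it rises from 0.461 ± 0.082 in the first window to 1.05 ± 0.01 at 50 kb (SD, n = 3), and beyond H3K27me3 alone it stays lower.

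The profile over run ends shows that H3K36me3 rose slowly away from runs with both marks. At 10 kb it was 0.711, 0.677 and 0.626 RPKM in replicates 1, 2 and 3, and at 40 kb 1.02, 0.994 and 1.02. The share of windows called for H3K36me3 rose with it, from 10.9% in the first window to 18.9% at 10 kb, 27.5% at 20 kb and 37.7% at 50 kb. Beyond runs of H3K4me3 alone this share was 30.2% in the first window and 33.3% at 50 kb. Beyond runs of H3K27me3 alone it was 8.75% and 9.77%. For scale, valid windows were grouped by CpG content, from fewer than 10 CpG to 100 or more. Any H3K36me3 was called in 22.8% to 40.8% of the windows of these groups. The 33.3% and 37.7% at 50 kb lay within this range. Beyond runs of H3K4me3 alone the level stood at 0.710, 0.751 and 0.702 in the first window and at 0.935, 0.927 and 0.940 at 50 kb. At 50 kb beyond runs with both marks it was 1.06, 1.04 and 1.05, higher in every replicate. The order of these 2 kinds of run near the ends was thus reversed farther out. Windows with both marks lay a median of 16 kb from the nearest H3K36me3 window (quartiles 8 to 30 kb), against 8 kb for H3K4me3 alone (4 to 22) and 36 kb for H3K27me3 alone (14 to 72).

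Genes were compared next. The midpoint of 47.7% of the windows lay in an annotated gene, close to the 48.9% of all valid windows, and above H3K4me3 alone (35.9%) and H3K27me3 alone (40.2%). Windows with both marks lay nearer to gene starts than most. Of them, 15.6% were within 5 kb of a protein-coding start and 39.8% more than 50 kb away, against 7.75% and 58.1% of all valid windows. A protein-coding start lay in 4.73% of the windows, as against 1.65% of all valid windows, 4.06% of H3K4me3 alone and 0.598% of H3K27me3 alone. Most of the windows were thus not promoters, and 92.0% held no start of any annotated gene.

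Seen from the genes, 5183 of 20788 protein-coding starts (24.9%) lay in a window with both marks. H3K4me3 alone held 36.1% of the starts, any H3K36me3 22.8%, no mark 9.81% and H3K27me3 alone 6.34%. The share was 22.3% for 5102 starts of long intergenic noncoding RNAs and 21.8% for 2914 antisense genes, and fell to 9.24% for 9035 processed pseudogenes. Runs with a protein-coding start numbered 4858, or 9.27% of the runs. They averaged 3.33 windows and 23.2% of them reached 5 windows, against 1.89 windows and 6.10% for the other runs. A longer run has more room for a start, so these values describe the runs and are not a test. In 295 runs there were at least 2 protein-coding starts, and the most was 5.

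**Figure D3:**
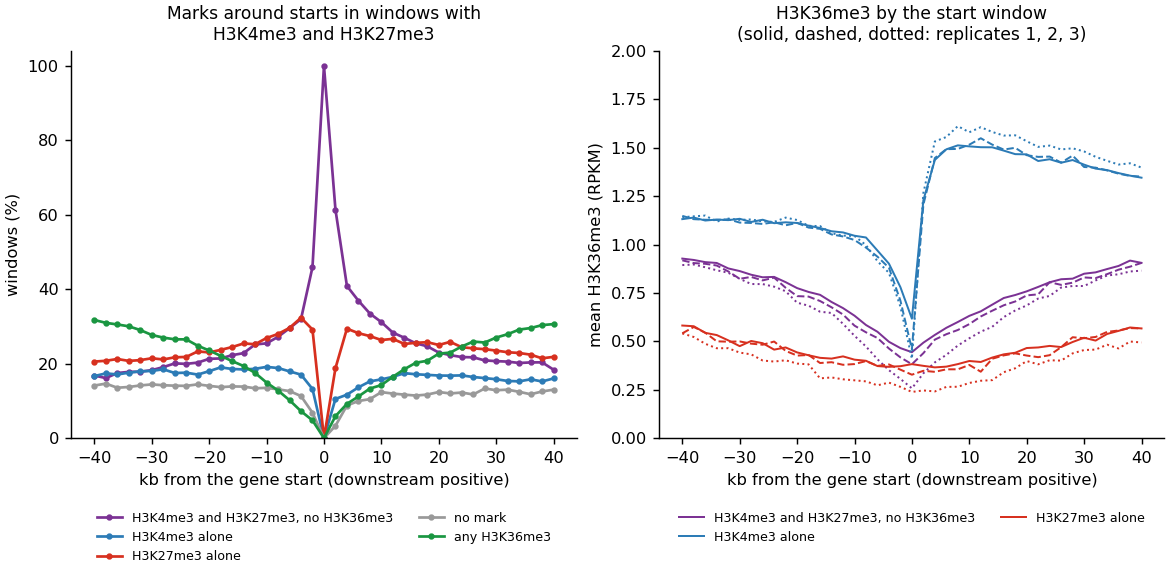
Left, share of windows of each category (%, y axis) by distance from 5183 protein-coding starts that lie in windows with both marks (kb, x axis). Right, mean H3K36me3 (RPKM, y axis) around starts in windows with both marks, H3K4me3 alone (7505 starts) and H3K27me3 alone (1317 starts), with a line for each replicate. Both marks fall away on either side, from 100% at the start to 46.0% at 2 kb upstream and 61.4% at 2 kb downstream, and 10 kb downstream H3K36me3 is 0.579 ± 0.059 for both marks and 1.53 ± 0.04 for H3K4me3 alone (SD, n = 3).

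Around starts with both marks, the share of windows with both marks was 25.5% at 10 kb upstream and 31.2% at 10 kb downstream. H3K27me3 alone was called in 26.9% and 26.4% of the windows at these distances, and H3K4me3 alone in 19.2% and 15.8%. H3K36me3 was called in 14.9% of the windows at 10 kb upstream and in 14.3% at 10 kb downstream, and its level was 0.581 ± 0.052 and 0.579 ± 0.059 RPKM (SD, n = 3), so it differed by less than the spread between replicates on the 2 sides of the start. Around starts with H3K4me3 alone the sides differed, with 1.04 ± 0.01 at 10 kb upstream and 1.53 ± 0.04 at 10 kb downstream (SD, n = 3).

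H3K36me3 in gene bodies was then compared by the marks at the start, in protein-coding genes of at least 20 kb and from 6 kb after the start to the gene end, so the windows that grouped the genes were left out. Bodies of 2790 genes with both marks at the start had 0.855, 0.840 and 0.838 RPKM in replicates 1, 2 and 3. Bodies of 4039 genes with H3K4me3 alone at the start had 1.61, 1.64 and 1.72. Bodies of 408 genes with H3K27me3 alone had 0.568, 0.554 and 0.5004. The replicate means of the 3 groups did not overlap, but single genes of the groups did. The quartiles of the mean of a gene were 0.356 to 1.06 RPKM with both marks and 0.274 to 0.513 with H3K27me3 alone. With H3K4me3 alone they were 1.42 to 2.35, and 26.9% of genes with both marks had a mean above 1. Genes with both marks had 0.509 times the level of H3K4me3 alone, a log2 ratio of -0.97 ± 0.06 (SD, n = 3), lower in 3 of 3 replicates. They had 1.56 times the level of H3K27me3 alone, a log2 ratio of 0.64 ± 0.09 (SD, n = 3), higher in 3 of 3 replicates. The same exact permutation test gave p = 0.25 for either contrast (0.25 after Benjamini-Hochberg adjustment over 4 contrasts), again the smallest value it allows. Taking the median over genes in place of the mean over windows moved the first log2 ratio to -1.81. Of the body windows of genes with both marks, 13.4% had both marks themselves and were low by the rule, and without such windows the log2 ratios were -0.89 and 0.69.

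**Figure D4:**
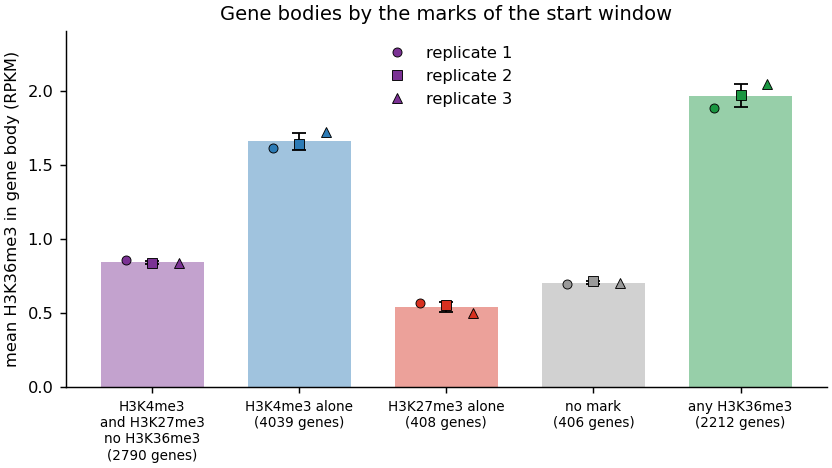
Mean H3K36me3 in gene bodies (RPKM, y axis) for protein-coding genes of at least 20 kb, grouped by the marks of the window that holds the start. Bars are means and error bars SD over 3 replicates, and symbols are replicates. Genes with both marks (0.844 ± 0.010) lie between H3K4me3 alone (1.66 ± 0.06) and H3K27me3 alone (0.541 ± 0.036).

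The bars of gene-body level hide a wide range among the genes with both marks. In 762 of the 2790 genes (27.3%) no body window was called for H3K36me3, and in 619 (22.2%) at least 50% of the windows were. With H3K4me3 alone these shares were 3.49% and 83.8%, and with H3K27me3 alone 48.8% and 5.15%. The mean over the body of a gene was 0.548 RPKM at the median (quartiles 0.356 to 1.06) with both marks, and above 1 in 750 genes (26.9%). A body window with both marks was found in 68.9% of genes with H3K27me3 alone at the start and in 13.7% with H3K4me3 alone. In 79.9% of the genes with both marks at the start, the body held at least 1 further window with both marks. Pax2, a factor of kidney and eye development (chr19:44756045-44837871), and Epha4, an ephrin receptor (chr1:77367185-77515088), were chosen after their values were seen as examples of such bodies. From 10 kb before the start to the gene end, 25 of 46 windows of Pax2 and 57 of 78 of Epha4 were called for H3K36me3, beside start runs of 10 and 5 windows with both marks.

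Which genes carried both marks at the start was described over 6 lists of 20 genes each, to be read beside the 24.9% of all protein-coding starts. The lists were chosen with earlier results of these data known, so the counts are a description and not a test. The start lay in a window with both marks in 18 of 20 homeobox factors, 19 of 20 other developmental factors, 13 of 20 signalling ligands and 14 of 20 neural receptors and channels. It did in 1 of 20 housekeeping genes and 2 of 20 oocyte genes. Where the start had both marks, its run had a median of 8 windows in homeobox factors, 5 in other developmental factors, 4 in ligands and 3 in neural genes, while all runs with a protein-coding start had a median of 2.

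**Figure D5:**
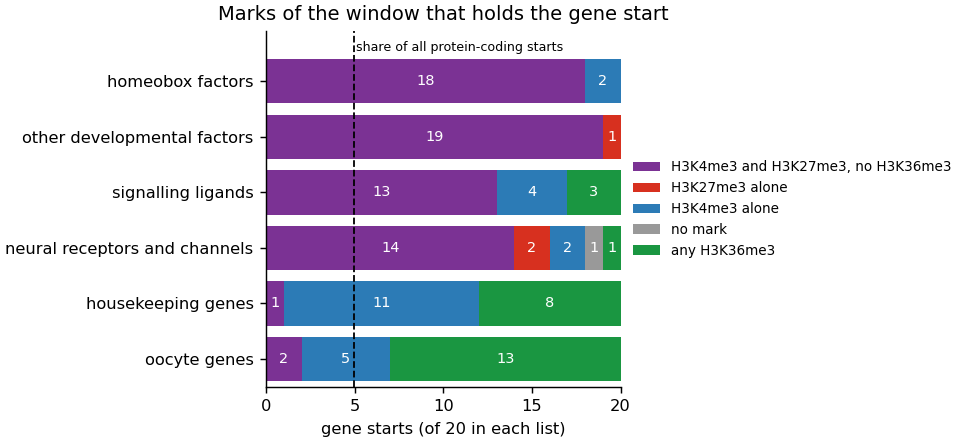
Number of gene starts (x axis, of 20 in each list) by the marks of the window that holds the start, for 6 lists of genes (y axis). The lists were chosen with earlier results of these data known. The dashed line is the 24.9% of all protein-coding starts with H3K4me3 and H3K27me3 and no H3K36me3, and 4 lists reach beyond it while housekeeping and oocyte genes do not.

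In the stacked counts by list, the 4 lists of developmental and neural genes lie beyond the line of all starts, and the other 2 lists before it. Homeobox factors bind DNA and set body pattern. Pax6 (chr2:105668900-105697364) had 16 of 20 windows with both marks between 10 kb before its start and its end, and 0.428, 0.416 and 0.423 RPKM of H3K36me3 in replicates 1, 2 and 3. Lhx2, a factor of forebrain and eye, had 11 of 21 windows with both marks, and Alx4, a factor of skull and limb, had 11 of 25. The starts of Gsc (Goosecoid) and Gbx2 had H3K4me3 alone. Gsc stood apart, with 6 of 7 windows called for H3K36me3 and 1.67, 1.64 and 1.74 RPKM, whereas Gbx2 had 1 of 8 and 0.543, 0.396 and 0.550 RPKM.

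Among the other developmental factors, Gata6, a factor of endoderm and heart, had 13 of 22 windows with both marks and 0.432, 0.667 and 0.123 RPKM. Its replicates were far apart, with replicate 2 the highest and replicate 3 the lowest. Gata4, a factor of heart and gonad, had 10 of 42 windows with both marks and 21 called for H3K36me3, with 1.12, 1.03 and 1.14 RPKM. All 9 windows of Sox1 had both marks, with 0.438, 0.396 and 0.414 RPKM. The start of Tbx5, a factor of heart and forelimb, had H3K27me3 alone, but 10 of its 32 windows had both marks.

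Signalling ligands are secreted or membrane-bound cues. Ntn1 (Netrin-1, axon guidance) had 24 of 102 windows with both marks, Wnt3a 15 of 27, Bmp7 15 of 42, and the Notch ligand Dll1 10 of 11. Gdf6, a growth factor of joints, had 10 of 15, although its start window carried all 3 marks. The starts of Wnt5a and Wnt7a had H3K4me3 alone. Wnt7a had 22 of 30 windows called for H3K36me3 and 1.63, 1.202 and 1.43 RPKM. The start of Fgf8 had H3K36me3 and H3K4me3, and 9 of its 9 windows were called for H3K36me3, with 2.16, 2.29 and 2.48 RPKM.

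Neural receptors and channels are long genes, and the windows with both marks were a smaller part of them, at 10.9% of 1760 windows against 56.4% of 273 for homeobox factors. The 10.9% was near the 8.94% of all valid windows. Ntrk2, the receptor of brain-derived neurotrophic factor, had 36 of 166 windows with both marks, and the ephrin receptor Ephb1 had 27 of 219. Robo1, an axon guidance receptor, had 29 of 366 although its start window had no mark. The start of the dopamine receptor gene Drd2 had H3K4me3 alone, that of the potassium channel gene Kcnj3 H3K27me3 alone, and that of the calcium channel gene Cacna1h H3K36me3 and H3K4me3. Cacna1h had 31 of 35 windows called for H3K36me3 and 2.12, 2.29 and 1.595 RPKM, whereas Drd2 had 0.339, 0.240 and 0.178.

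Housekeeping genes had both marks in 6.77% of their windows, near the 8.94% of all valid windows, and at the start of 1 of 20. This gene, Gusb, which encodes a lysosomal glucuronidase, had both marks in 9 of 13 windows, with a start run of 8 windows and 0.554, 0.305 and 0.286 RPKM. Actb had 4 of 8 windows with both marks around a start with H3K4me3 alone, and Pgk1 2 of 14. The starts of Gapdh and Hprt had H3K36me3 and H3K4me3, and neither gene had a window with both marks and no H3K36me3. Over the list, 65.0% of the windows were called for H3K36me3.

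Oocyte genes were called for H3K36me3 in 67.8% of their windows, close to the 65.0% of housekeeping genes. The share was 13.6% in homeobox factors, 17.8% in other developmental factors, 16.5% in ligands and 22.9% in neural genes. For scale, it was 22.8% to 40.8% in valid windows grouped by CpG content. The labelled cell type was not tested with these lists. Windows of the zona pellucida genes Zp2 and Zp3, which encode the coat of the egg, were called for H3K36me3 in 15 of 15 and 10 of 10 cases, and those of Zp1 in 5 of 9. Zp2 had 2.21, 2.30 and 2.98 RPKM, and Zp3 2.23, 2.18 and 1.83. Other oocyte genes, chosen after their values were seen, had little of the mark, with 0 of 7 windows called in Zar1, 2 of 7 in Mos and 2 of 8 in Dppa3. Both marks at the start were found in Sohlh1 and Lhx8, transcription factors of early oocyte differentiation. Sohlh1 had 6 of 8 windows with both marks and 0.356, 0.248 and 0.212 RPKM. Lhx8 had 4 of 18, with 12 windows called for H3K36me3 and 1.66, 1.89 and 1.56 RPKM. Figla had 2 windows with both marks of 8, and Kit 1 of 47.

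Gene families named by their symbols, chosen after values were seen, were counted in the same way. Of the 39 Hox genes, 37 starts had both marks. The start of Hoxb3 had H3K27me3 alone, with 0.407, 0 and 0.338 RPKM in replicates 1, 2 and 3, and that of Hoxb1 H3K4me3 alone, with 0.407, 0.396 and 0. In the Nkx (14 of 14), Dlx (6 of 6) and Irx (6 of 6) families every start had both marks, and the share was 17 of 19 for Sox, 8 of 9 for Pax, 11 of 13 for Tbx, 14 of 19 for Wnt and 27 of 44 for Fox genes. Potassium channel genes (Kcn, 60 of 94) and collagen genes (Col, 28 of 44) also stood above the 24.9% of all starts. Zinc finger genes (Zfp) were close to it, with 69 of 337 (20.5%). Ribosomal protein genes had 1 of 72, Nduf genes of respiratory complex I 0 of 46, proteasome genes 5 of 39 and olfactory receptor genes 19 of 1087, most of whose starts (687) had no mark.

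The 10 longest runs were then examined, ordered by length. The longest, chr11:96276001-96322000 (GRCm38), covered 46 kb of the Hoxb cluster, from the last part of Hoxb9 to Hoxb4, with the starts of Hoxb8, Hoxb7, Hoxb6, Hoxb5 and Hoxb4, the antisense gene Hoxb5os and the miRNA gene Mir10a inside it. H3K36me3 there was 0.236, 0.448 and 0.265 RPKM in replicates 1, 2 and 3, from 84 reads in all. The windows of this run held a mean of 59.7 CpG, and H3K27me3 alone lay beyond either end. The other 9 runs had means between 20.2 and 49.0 CpG, 0.237 to 0.520 RPKM and 58 to 118 reads.

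Of the other 9 long runs, 6 overlapped protein-coding genes. The second, chr11:94910001-94952000, covered Col1a1, which encodes a chain of type I collagen, and the region before it, and left out only its very end. Glis1, a Krüppel-like zinc finger factor gene, had its start and first part in chr4:107430001-107470000 (20 windows), and the homeobox gene Barhl2 lay in chr5:106446001-106486000 (20 windows) with its neighbour Gm26872. The eighth, chr11:102196001-102234000, lay 89.9% within Hdac5, a histone deacetylase gene, and the tenth, chr16:30270001-30306000, held the start of Lrrc15. The fourth, chr6:142780001-142822000, held Sult6b2, a sulfotransferase gene, and the end of St8sia1. The third (chr13:44038001-44080000), the sixth (chr6:143348001-143388000) and the ninth (chr1:23324001-23362000) overlapped no protein-coding gene, so long runs were not limited to genes.

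Taken over all positions, the windows had more CpG than windows with a single mark or none, a property the rule did not use. The mean was 27.8 CpG per window (median 24, quartiles 17 to 32), against medians of 15 for H3K4me3 alone, 13 for H3K27me3 alone, 9 for no mark and 14 for all valid windows. The quartiles of windows with both marks overlapped those of H3K4me3 alone (10 to 22) and H3K27me3 alone (9 to 19). At protein-coding starts the order was the other way for H3K4me3 alone, with a median of 71 CpG against 58 for both marks and 16 for H3K27me3 alone. Windows with both marks and without any gene start still had 23, and those more than 50 kb from a protein-coding start 21, against 12 for either single mark at that distance. Windows with all 3 marks were alike, with a median of 25. The share of valid windows that had both marks and no H3K36me3 rose from 0.868% of windows with fewer than 10 CpG to 17.6% at 20 to 29 CpG and 33.0% at 100 or more. H3K4me3 alone was also most frequent in the richest windows, with 11.5% of windows with fewer than 10 CpG, 14.8% at 20 to 29 and 42.0% at 100 or more. Windows are neighbours along the same chromosomes and share the same calls, so these values are given without a test.

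The windows were spread unevenly over chromosomes. They made up between 7.29% (chromosome 14) and 14.2% (chromosome 19) of the valid windows of an autosome, with a median of 8.90%, and 3.99% of those of X. X was below every autosome in H3K4me3 calls (20.3% against 23.6% or more) and in H3K27me3 calls (18.6% against 25.1% or more), and also in CpG, with a mean of 11.2 per window against 15.04 to 19.6. Of the H3K27me3 windows of X, 21.4% had both marks and no H3K36me3, just below the lowest autosome (22.1%), and of the H3K4me3 windows 19.6%, against 27.5% or more. With only X on one side, the comparison has no test, and the part of CpG in the low share on X was not tested. H3K36me3 in the windows was 0.388 ± 0.105 RPKM on X and 0.370 ± 0.094 on autosomes (SD, n = 3). In replicates 1, 2 and 3 these were 0.490, 0.394 and 0.281 against 0.460, 0.379 and 0.272, higher on X in 3 of 3 replicates. The difference was small beside the levels, whose SD is not the spread of the difference within replicates.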

How the data were processed

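H3K36me3 ChIP-seq was available for 3 replicates of a single group. The authors trimmed reads (methods of the study), mapped them to GRCm38 (Bowtie2 2.2.9 in the submitters' processing notes), counted them in 2 kb windows in SeqMonk and removed windows with extreme input signal. The deposited RPKM values are linear, 1 column per replicate, and were assigned by heading. All were whole multiples of the value of 1 read (0.136, 0.396 and 0.338 RPKM in replicates 1, 2 and 3), and whole reads were recovered for 100% of values within 0.001 reads: 7888140, 2692510 and 3166564 in all windows, of which 359528, 101463 and 85377 in the windows described. Whether the authors divided by window length was not settled, so RPKM is a relative scale within these files. Duplicate removal is not given in the sources used here. The second deposited file holds category names without values. Windows absent from it were treated as unmarked. No column of fold changes or p-values and 0 columns of other samples were used.

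Runs, gene positions (GENCODE M21, GRCm38), CpG (GRCm38.p6) and levels were computed with Python 3.11.15, numpy 2.4.6 and pandas 2.3.3. Levels were compared as log2 ratios within replicates, without a pseudocount, by exact two-sided sign-flip permutation over 3 replicates, adjusted by Benjamini-Hochberg over 4 contrasts. A window in several genes or beside several runs counts for each. Nothing shows that p-values cover more than the spread between these pools. The code was tested on simulated data with known runs and ratios. Named items were the 10 longest runs with their genes, and in each list the 4 genes with most windows (a tie kept) and up to 3 with another start category, in list order. Some genes that this rule names are not reported here. The windows and lists were chosen with earlier results of these data known. Alternatives changed the threshold, the combination of replicates, the joining of runs, the choice of starts, gene lengths, distances, averaging (with a pseudocount of 0.1 in logs), a filter on windows without reads, and chromosomes.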

Additional observations from a re-analysis of the deposited data

How the results depend on the processing

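The number of windows stayed within 1.5 times of 106063 under every alternative, from 77876 (mean of 0.5 or less) to 110747 (mean of 1.5 or less), with 80631 when every replicate had to be at 1 or less and 102563 to 106102 without 1 replicate. The share of windows in runs of at least 5 was 10.98% at a mean of 0.5 or less, 11.8% with every replicate at 1 or less and 44.5% with runs that bridge 1 window, and 22.4% to 25.8% without 1 replicate. Fewer windows were left at the stricter thresholds. The share of protein-coding starts was 18.5% and 19.1% at the same stricter thresholds, 18.3% over all annotated genes, 28.3% with any transcript start, 32.2% with starts within 1 window, and 24.0% to 25.0% without 1 replicate. The share of windows in a gene was 39.9% with protein-coding genes only. In runs of at least 5 windows, 40.7% of ends met H3K27me3 alone, 39.9% H3K4me3 alone, 10.9% any H3K36me3 and 8.06% no mark.

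The 4 contrasts kept their direction under each of their alternatives (11 for each gene-body contrast, 9 for each run-end contrast). The run-end alternatives reached no farther than the 10th window (20 kb), and none left out windows of further runs of the same kind. At 50 kb beyond runs of at least 5 windows, H3K36me3 was higher beside both marks than beside H3K4me3 alone in every replicate. Without 1 replicate, where the smallest p is 0.5, the log2 ratios of gene bodies ranged from -1.003 to -0.94 and from 0.59 to 0.67, and those beside runs from -0.67 to -0.54 and from 0.35 to 0.40. Values moved by over 1.5 times with the median over genes (-1.81 against H3K4me3 alone), and beside runs of at least 5 windows (-0.37 against H3K4me3 alone and 0.90 against H3K27me3 alone) and in the first window beyond the end (0.17 against H3K27me3 alone). The cause was not tested. No paired analysis was possible because the samples form a single group, so no numbers are shared between groups of samples. Window sets were compared within each replicate. Depth limits single windows, which rest on a median of 5 reads, and the calls of H3K4me3 and H3K27me3 have no replicates here.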
